A study of Mus musculus with 6 samples.

Results

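Interleukins and colony stimulating factors were followed in sorted cells of the newborn mouse bladder, as every probe set whose single gene symbol in the platform annotation begins with Il and a digit or with Csf and 1, 2 or 3. The rule gave 130 of 45037 probe sets, for 81 genes. They were 45 probe sets of 35 ligand genes, 76 of 40 receptor genes (accessory chains included), 7 of 4 secreted antagonists or binding proteins and 2 of 2 other transcripts, Il4i1 and Il1bos. All mice were male, of the FVB/N strain and taken at postnatal day 2, and carried 2 transgenes, EGFP driven by the smooth muscle gamma actin promoter (SMGA) and EYFP driven by the smooth muscle alpha actin promoter (SMAA). Bladders were digested with enzymes and sorted by fluorescence into cells that were EGFP positive and EYFP negative (called single-positive here, 3 arrays) and cells that were EGFP positive and EYFP positive (double-positive, 3 arrays). Both sorts therefore share the gamma actin reporter and differ in the alpha actin reporter, and the labels place both in the detrusor, the muscle coat of the bladder. The labels record no pooling and do not say whether different animals gave the 3 arrays of a sort. The p-values thus reflect only how far these arrays differ from each other, and that spread may be technical.

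Signal intensities on Affymetrix MOE430 arrays, in arbitrary units, had array medians from 147 to 200. Differences are double-positive minus single-positive in log2(signal + 25.042), a scale on which the change of dim probe sets is understated. A probe set is called dim where its signal lies under 87.6, the 40th percentile of the probe set means, taken on that log2 scale and turned back to signal. Signals of different probe sets do not rank genes, since each probe set has its own response. In bulk RNA of sorted cells, fewer cells of a type and less RNA per cell cannot be told apart.

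The endogenous actin genes were not higher in the cells sorted for the alpha actin reporter. Acta2, smooth muscle alpha actin, gave 9629, 7271 and 6409 in single-positive and 412, 435 and 265 in double-positive arrays on 1 probe set, a log2 difference of -4.31 (limma adjusted p = 0.000954). Its other 2 probe sets had -3.07 (limma adjusted p = 0.141) and, with overlapping groups on a probe set shared between transcripts, -0.07. Actg2, smooth muscle gamma actin, fell as well (-2.54, limma adjusted p = 0.00254). Acta2 thus goes against the labels of the sorts, and single-positive and double-positive below mean the libraries labelled so, on which every direction rests.

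Interleukins and colony stimulating factors are small secreted proteins that pass signals between immune, stromal and epithelial cells. Most bind receptors built from a private chain and a shared signalling chain. Interleukin 6, interleukin 11 and leukaemia inhibitory factor use the shared chain gp130 (Il6st), which acts through JAK kinases and STAT factors and induces the brake Socs3. Interleukin 3, interleukin 5 and granulocyte-macrophage colony stimulating factor (Csf2) use the common beta chain (Csf2rb). Csf1r is instead a receptor tyrosine kinase, on which macrophages depend and which binds both Csf1 and Il34. The interleukin 1 family signals through receptors that recruit Myd88.

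The probe sets that fell in the double-positive cells were all of receptor chains, and none of the 130 rose. Csf1r fell on 2 of its 3 probe sets, Csf2rb on 1 of 2 and Il6st on 1 of 4. These 4 of 130 are 3.08%, beside 1.07% of all probe sets that passed downward (481 of 45037, limma adjusted p under 0.05) and 0.471% that passed upward, or 1.54% in either direction. At an unadjusted p under 0.05 in limma, 9 members were higher (6.92%, against 4.57% of all probe sets) and 16 lower (12.3%, against 6.11%). Leaving out an array changed the 4 falls to 1 (single-positive array 1, and likewise array 3), 2 (single-positive array 2, and likewise double-positive array 1) or 5 (double-positive array 3), while 4 were called when double-positive array 2 was left out. With median centring of the arrays, or without a variance trend, 2 passed. When dim probe sets were left out, 8 of the 69 members that remained were called lower and 0 higher, where 3.42% of all remaining probe sets were called, 2.42% lower and 1.01% higher. The second Csf2rb probe set, 1 of these 8, passed that filter only through its single-positive values.

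Many of the transcripts were near the bottom of the range. On 34 of the 130 probe sets no array was above the dim level, and on 41 all 6 arrays were. On the log2 scale, the mean over all 6 arrays was above that level for 69 probe sets of 45 genes. The median difference of the 45 ligand probe sets was 0.20 and that of the 76 receptor probe sets -0.06, where the median of all probe sets was 0.04. The 2 groups did not overlap on 21 member probe sets that were lower in the double-positive arrays (16.2%, against 7.78% of all probe sets) and on 12 that were higher (9.23%, against 8.10%). Of the 21 lower ones 17 were among the 76 receptor probe sets (22.4%) and 3 among the 45 ligand probe sets (6.67%).

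**Figure D1:**
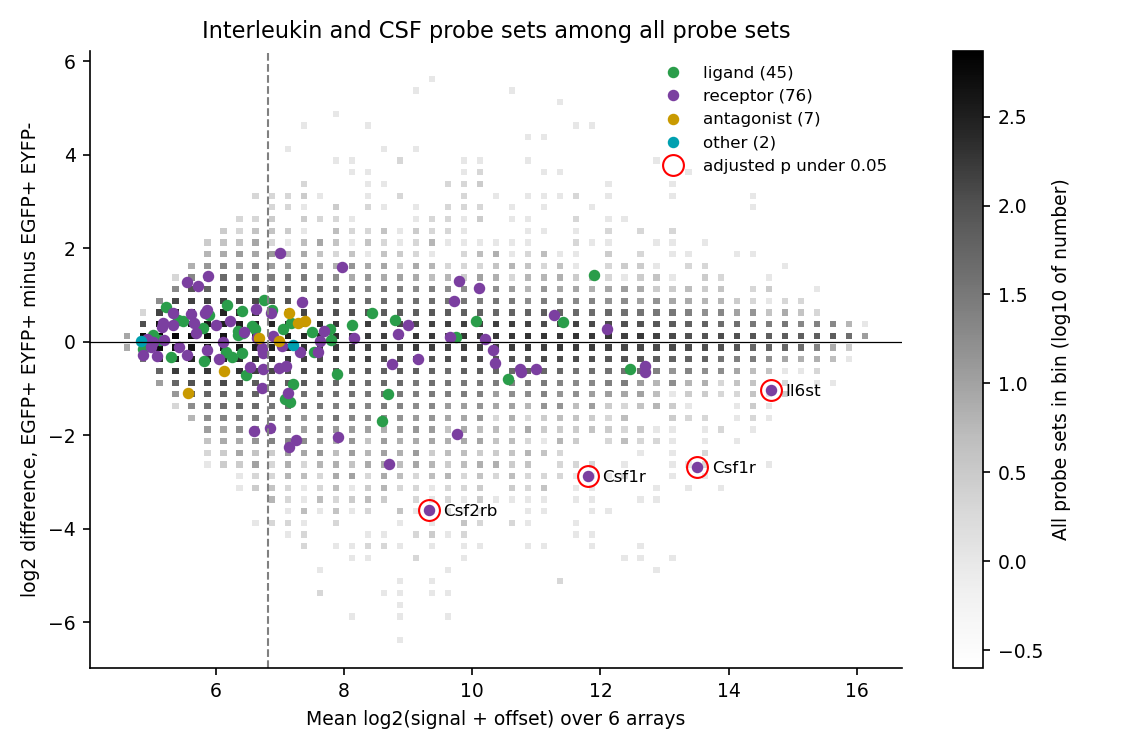
Log2 difference (double-positive minus single-positive, vertical axis) against mean log2(signal + offset) over 6 arrays (horizontal axis) for the 130 interleukin and CSF probe sets, coloured by class, over grey squares that give the number of all probe sets per bin on a log10 scale; the dashed line is the dim level. The 4 circled points that passed an adjusted p of 0.05 are receptor chains (Csf1r on 2 probe sets, Csf2rb, Il6st) and lie below 0.

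Among the ligands no probe set passed in either direction in limma. At an unadjusted p under 0.05, 1 was higher (2.22%, against 4.57% of all probe sets) and 3 were lower (6.67%, against 6.11%). Il6, the pleiotropic cytokine of acute inflammation that fibroblasts, macrophages and muscle can secrete, gave signals of 2818, 1238 and 3504 in the single-positive arrays and 9729, 3966 and 6206 in the double-positive arrays. All 3 double-positive values lay above all 3 single-positive values, although the lowest of the former was close to the highest of the latter. The mean went from 2520 ± 1162 to 6634 ± 2905 (SD, n = 3), with a log2 difference of 1.42 (SE 0.44, 95% interval 0.42 to 2.42, limma adjusted p = 0.229). Over 16 alternative settings its log2 difference was 0.98 to 1.74 and its adjusted p 0.0618 to 0.533, so the rise was not called in any of them.

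The Il6 promoter is shown because it carries, in a short stretch, matches to motifs of factors that are known to drive this gene. The stretch of 250 bases before the annotated start is given 5′ to 3′ on the gene's strand (RefSeq, GRCm38.p6, chr5:30012864-30013113, plus strand), with capitals marking, in order, an AP-1 match (TGANTCA), a C/EBP match (TTGCNNAA, read on the opposite strand) and a match to the NF-kB consensus.
Il6: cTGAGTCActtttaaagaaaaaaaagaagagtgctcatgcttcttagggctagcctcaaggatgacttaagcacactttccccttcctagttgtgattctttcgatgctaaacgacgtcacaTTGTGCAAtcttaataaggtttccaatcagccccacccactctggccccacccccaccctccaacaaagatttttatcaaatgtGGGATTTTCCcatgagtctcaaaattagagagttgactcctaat
The NF-kB match lies 44 to 35 bases before the start, the C/EBP match 128 to 121 and the AP-1 match 249 to 243. On either strand of windows of the same length, the NF-kB consensus was found in 3.9% of 32851 promoters, the C/EBP motif in 9.56% and the AP-1 motif in 6.75%. The table held 75 promoters of 62 of the 81 member genes, of which 6.67% held the NF-kB consensus (Csf1, Il16, Il1r1, Il2ra and Il6), 17.3% the C/EBP motif and 18.7% the AP-1 motif. A STAT motif (TTCNNNGAA) was also searched and was in 7.02% of all and 12.0% of member promoters, and it was not found in the Il6 window. The motifs were chosen after the values were known and do not overlap one another here, and a match is a description of letters only.

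Csf1, which sustains macrophages, was read by 4 probe sets, and none passed. The brightest gave 2482, 2210 and 2326 in single-positive and 3290, 3374 and 2800 in double-positive arrays. The groups did not overlap on it, and the difference was small, 0.42 on the log2 scale (SE 0.22, 95% interval -0.07 to 0.92, limma adjusted p = 0.557). The other 3 Csf1 probe sets had log2 differences of 0.36, 0.47 and 0.60, each with overlapping groups. Il34, which binds the same receptor, lay near the dim level with signals of 113, 140 and 61.9 against 95.9, 280 and 97.4. Csf2 and Csf3, the granulocyte-macrophage and granulocyte factors, stayed under the dim level on all 6 arrays, the highest values being 78.2 and 80.9.

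In the interleukin 1 family, Il33, an alarmin held in the nucleus of stromal and epithelial cells, was well above the dim level in every array. Its signals were 7159, 8138 and 5646 in single-positive and 4761, 4184 and 4878 in double-positive arrays, with every double-positive value below every single-positive value. The log2 difference was -0.58 (SE 0.21, 95% interval -1.06 to -0.11, limma adjusted p = 0.328), which did not pass. Il18, an inflammasome-processed cytokine, had overlapping groups, with means of 825 ± 208 and 876 ± 149 (SD, n = 3) and a log2 difference of 0.10 (95% interval -0.65 to 0.85).

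Il1b and Il1a, the inflammatory interleukin 1 ligands, varied widely within the single-positive sort. Il1b signals were 228, 1507 and 857 against 282, 139 and 174, and the groups overlapped through the first single-positive array. Its log2 difference was -1.70 (SE 0.66, limma adjusted p = 0.378), and -2.43 to -1.13 over the alternatives. Il1a was 52.3, 952 and 94.1 in single-positive arrays and 19.8, 258 and 29.5 in double-positive arrays, so that array 2 was the highest of its sort in both. Its log2 difference was -1.23 (SE 1.04, limma adjusted p = 0.781). Il10, an anti-inflammatory cytokine, was also highest in single-positive array 2, at 569, against 37.4 and 199 in the other single-positive arrays and 58.4 to 102 in the double-positive arrays (log2 difference -0.90, SE 0.78, limma adjusted p = 0.788). None of these 3 differences passed.

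Of the remaining ligands above the dim level on every array, Il15, which supports natural killer and memory T cells, gave 797, 807 and 1090 against 1302, 892 and 1562 (log2 difference 0.45, 95% interval -0.28 to 1.18). Il17d, a distant member of the interleukin 17 family, gave 2032, 1871 and 1993 against 853, 1106 and 1500 on its brighter probe set, without overlap (log2 difference -0.79, SE 0.29, limma adjusted p = 0.333). On its other probe set the groups overlapped (-0.70). Il16, a chemoattractant for CD4+ cells, had 4 probe sets, with log2 differences of -1.30, -1.11, 0.20 and 0.21. Its brightest probe set gave 791, 225 and 1070 against 390, 115 and 356, and in each sort array 2 was the lowest. Il7 lay near or under the dim level, its highest signal being 98.3, and Il11 reached 130, with array 1 lowest in each sort.

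**Figure D2:**
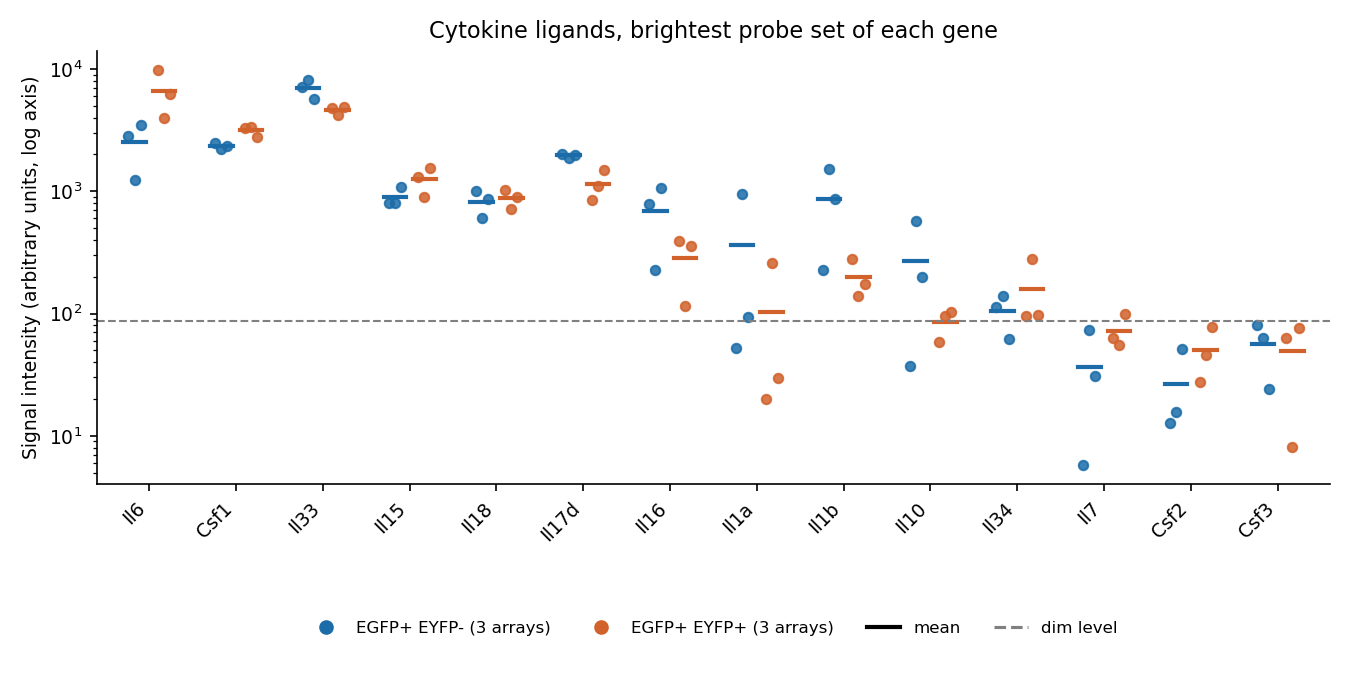
Signal intensity (arbitrary units, log axis) of 14 cytokine ligands on the brightest probe set of each gene in 3 single-positive (blue) and 3 double-positive (orange) arrays, with bars for the means and a dashed line for the dim level at 87.6. Il6 and Csf1 are higher in every double-positive array and Il33 and Il17d lower, none past the adjusted threshold, while Csf2 and Csf3 stay under the dashed line.

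The receptor with the strongest test was Csf1r, the macrophage receptor of Csf1 and Il34. On its brightest probe set the signal was 34468, 26671 and 27952 in the single-positive arrays and 3092, 8416 and 3705 in the double-positive arrays. All 3 double-positive values were below all single-positive ones, with double-positive array 2 the highest of its sort. The mean fell 5.86-fold, from 29697 ± 4181 to 5071 ± 2913 (SD, n = 3), with a log2 difference of -2.68 (SE 0.35, limma adjusted p = 0.00837). This call held in all 16 alternatives, in which the log2 difference was -3.11 to -2.40. The second probe set, which is marked as shared between transcripts, gave -2.87 (SE 0.40, limma adjusted p = 0.011), with adjusted p = 0.0515 without single-positive array 1 and adjusted p = 0.0633 without single-positive array 3. The third gave 2392, 1184 and 1729 against 331, 704 and 303, with -1.97 (limma adjusted p = 0.0677), which did not pass.

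Csf2rb, the common beta chain, gave 2008, 2413 and 2196 in the single-positive arrays against 90.6, 62.2 and 596 in the double-positive arrays. The single-positive values were close together, and double-positive array 3 was the highest of its sort. The log2 difference was -3.59 (SE 0.67, limma adjusted p = 0.0408). The call was lost when any array but double-positive array 3 was left out (adjusted p 0.115 to 0.169), while without that array it held and the log2 difference was -4.47. It was also lost with quantile normalization (adjusted p = 0.0713), median centring (adjusted p = 0.0541) and no variance trend (adjusted p = 0.0919). On the other Csf2rb probe set the values were 353, 282 and 245 against 54.0, 18.9 and 88.7 (-2.10, SE 0.51, limma adjusted p = 0.110). Csf2rb2, its mouse paralog that pairs with the interleukin 3 receptor, gave 1106, 1030 and 891 against 61.3, 122.7 and 346, a log2 difference of -2.62 (SE 0.55, limma adjusted p = 0.0622). The paralogs are near-identical, so their probe sets may share signal.

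Csf2ra, the private chain that binds Csf2, had overlapping groups of 456, 358 and 423 against 402, 623 and 399 (log2 difference 0.17, 95% interval -0.68 to 1.02). Csf3r, the granulocyte factor receptor of neutrophils and monocytes, which does not use the common beta chain, was 279, 149 and 171 in single-positive arrays and 44.2, 54.3 and 15.8 in double-positive arrays, all of the latter dim and without overlap (-1.85, SE 0.49, limma adjusted p = 0.141). Il3ra and Il5ra, the chains for interleukin 3 and interleukin 5, had log2 differences of 0.70 and 0.62 at signals of at most 141 and 61.5.

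Upstream sequences of Csf2rb2 and Csf3r are shown as those of myeloid receptor genes whose groups did not overlap, although neither gene passed. Those of Csf1r, Csf2rb and Il10ra were not analysed here. Each is the 250 bases before the annotated start, 5′ to 3′ on the gene's strand (RefSeq, GRCm38.p6), with capitals marking GAGGAA, the core bound by ETS factors such as the myeloid factor PU.1, or its reverse complement TTCCTC. Csf2rb2 lies at chr15:78305722-78305971 on the minus strand and Csf3r at chr4:126024409-126024658 on the plus strand.
Csf2rb2: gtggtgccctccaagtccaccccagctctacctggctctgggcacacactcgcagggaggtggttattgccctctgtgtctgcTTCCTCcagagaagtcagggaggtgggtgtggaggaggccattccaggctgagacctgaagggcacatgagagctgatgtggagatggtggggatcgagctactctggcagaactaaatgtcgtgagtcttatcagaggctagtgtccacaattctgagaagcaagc
Csf3r: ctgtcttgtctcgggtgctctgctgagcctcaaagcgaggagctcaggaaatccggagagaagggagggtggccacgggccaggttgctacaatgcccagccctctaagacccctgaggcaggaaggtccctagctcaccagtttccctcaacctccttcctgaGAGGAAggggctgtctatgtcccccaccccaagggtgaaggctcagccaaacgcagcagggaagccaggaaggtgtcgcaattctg
The match lies 167 to 162 bases before the start in Csf2rb2, on the opposite strand, and 86 to 81 bases before it in Csf3r. The motif was in 23.3% of all promoters and in 22 of 75 promoters of member genes (29.3%), a common match in windows of this length. Csf2rb2 also held the STAT motif, 15 to 7 bases before the start.

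Many probe sets of the macrophage and pan-leukocyte list were also lower in the double-positive arrays. Of 34 probe sets of the 21 genes on that list, 22 fell and none rose, with a median log2 difference of -2.60, beside -1.97 for the 11 probe sets of receptors for CSF, interleukin 3 and interleukin 5. Mrc1, Fcgr2b and Cd163, all macrophage surface receptors, had log2 differences of -2.96, -3.32 and -2.79. The summed signal of the list, taking the brightest probe set of each gene, ranged from 102492 to 146138 in single-positive and from 16415 to 18389 in double-positive arrays, a 6.82-fold difference. Ptprc, the pan-leukocyte antigen CD45, was 2473, 1007 and 2319 against 361, 266 and 491, so it remained above the dim level in both sorts. The part of these cells in the Csf1r, Csf2rb and other receptor values was not tested. Markers of neutrophils (7 probe sets), T, natural killer and innate lymphoid cells (17) and B cells (7) gave no call in limma. At an unadjusted p under 0.05 only 1 of these was higher, of Cd247, on a probe set dim on every array. On the log2 scale only 2, 3 and 1 of these probe sets, in that order, had a mean above the dim level. The lack of calls there thus does not show that these cells were unchanged. Of 10 mast cell probe sets 1 rose, of Hdc (3.24), and 1 fell, of the protease Cma1 (-3.52).

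Other cell types were marked lower as well. Smooth muscle probe sets fell in 12 of 17 cases, with summed signals of 290594 to 374138 against 105706 to 145689. These include the falls of Acta2 and Actg2. Of endothelial probe sets 5 of 15 fell, of urothelial 10 of 21 and of nerve and Schwann cell 2 of 14, and none of these rose. Fibroblast (17 probe sets) and mesothelial (6) markers gave no call in limma, with 4 fibroblast probe sets higher and 1 mesothelial lower at an unadjusted p under 0.05. Fibroblast sums were 340943 to 405269 against 334141 to 477107. Median log2 differences were -2.86 for smooth muscle, -2.11 for urothelial, -1.76 for endothelial and -1.11 for nerve and Schwann cell probe sets. Those of fibroblast and mesothelial probe sets were 0.13 and 0.17. The part of these cell types in the Il6st and other cytokine values was not tested.

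**Figure D3:**
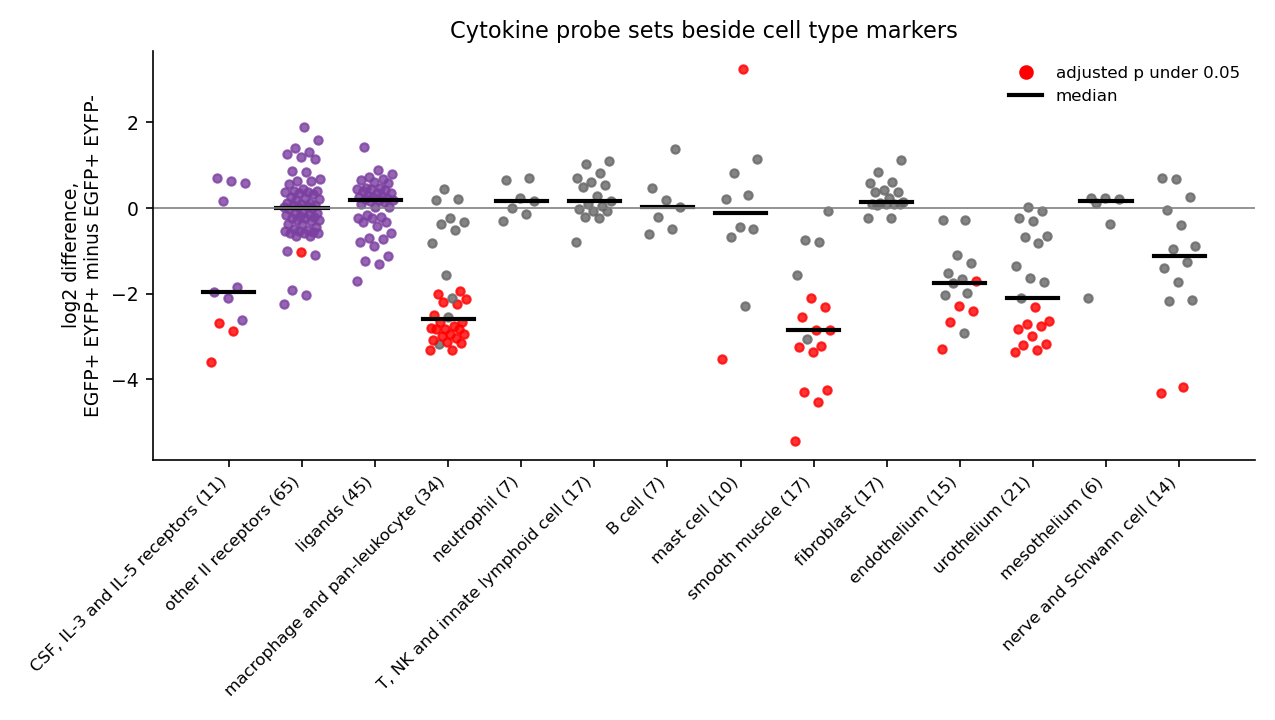
Log2 difference (double-positive minus single-positive) of each probe set for cytokine receptors, cytokine ligands and 11 marker lists, with the number of probe sets in brackets, black bars at the medians and red points past an adjusted p of 0.05. The CSF, IL-3 and IL-5 receptors have a median of -1.97 and the macrophage list one of -2.60. The smooth muscle, urothelium, endothelium and nerve and Schwann cell lists have medians of -2.86, -2.11, -1.76 and -1.11. Ligands, other interleukin receptors and the remaining lists centre near 0.

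The gp130 family went in several directions. Il6st, gp130 itself, gave 39385, 38220 and 33184 in the single-positive arrays and 18278, 19366 and 16584 in the double-positive arrays on its brightest probe set. The groups were far apart relative to their spread, and the mean fell 2.04-fold, from 36930 ± 3296 to 18076 ± 1402 (SD, n = 3; log2 difference -1.03, SE 0.15, limma adjusted p = 0.0135). A second probe set gave 8210, 7064 and 9835 against 4439, 6502 and 5153, also without overlap, but did not pass (-0.64, limma adjusted p = 0.300). On the other 2 the groups overlapped, with -0.53 and -0.18. The call on the brightest probe set was lost on leaving out any of the 3 single-positive arrays or the first double-positive array (adjusted p 0.0512 to 0.0837), with median centring (adjusted p = 0.110), without a variance trend (adjusted p = 0.147) and when the probe sets were averaged, where the log2 difference was -0.59 (adjusted p = 0.502).

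Il6ra, the private chain for interleukin 6, had log2 differences of 0.23 and 0.84 on 2 probe sets with overlapping groups, each with at least 1 array under the dim level. Among partner genes of these families, 3 of 22 probe sets rose and none fell, and all 3 belonged to Lepr, the leptin receptor, a chain of the same class as gp130. Lepr gave 323, 606 and 457 against 11177, 8512 and 9086, a log2 difference of 4.34 (SE 0.29, limma adjusted p = 0.000954), and 3.23 and 3.00 on the other 2 that rose. Its other probe set was dim on every array (0.58). Lif, a gp130 ligand, gave 302, 235 and 262 against 796, 876 and 815, without overlap (1.56, SE 0.34, limma adjusted p = 0.0729). Lif passed in 3 of 16 alternatives: the filter on dim probe sets (adjusted p = 0.0411), the brightest probe set of each gene with that filter (adjusted p = 0.0203) and no variance trend (adjusted p = 0.0443). Osm, a gp130 ligand of macrophages and other leukocytes, gave 1157, 1149 and 1292 against 83.7, 219 and 455 (-2.39, SE 0.53, limma adjusted p = 0.0784). Ebi3, a secreted subunit shared by interleukin 27 and interleukin 35, gave -2.05 (limma adjusted p = 0.0689), and passed in 5 of 16 alternatives.

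Socs3, the feedback brake of gp130 signals, rose on 1 of 3 probe sets, from 8270, 6878 and 8060 to 22023, 22503 and 14300 (log2 difference 1.31, SE 0.22, limma adjusted p = 0.0235). The other 2 had 0.67 and 0.33 with limma adjusted p = 0.0905 and 0.439, also without overlap. The Socs3 call was lost without any 1 array other than double-positive array 3 (adjusted p 0.0768 to 0.114) and without a variance trend (adjusted p = 0.123). In the list of JAK-STAT brakes to which it belongs, 1 of 51 probe sets rose and 1 fell, where 0.471% of all probe sets passed upward and 1.07% downward. The fall was of Ptprc (-2.23, limma adjusted p = 0.0439), and its call held in 6 of 16 alternatives (adjusted p 0.0111 to 0.201). On the other Ptprc probe set the groups overlapped (-0.38). Of 21 probe sets of JAK kinases and STAT factors none passed in limma, and none reached an unadjusted p of 0.05. The smallest p there was that of Jak2 (-0.62, limma adjusted p = 0.527).

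**Figure D4:**
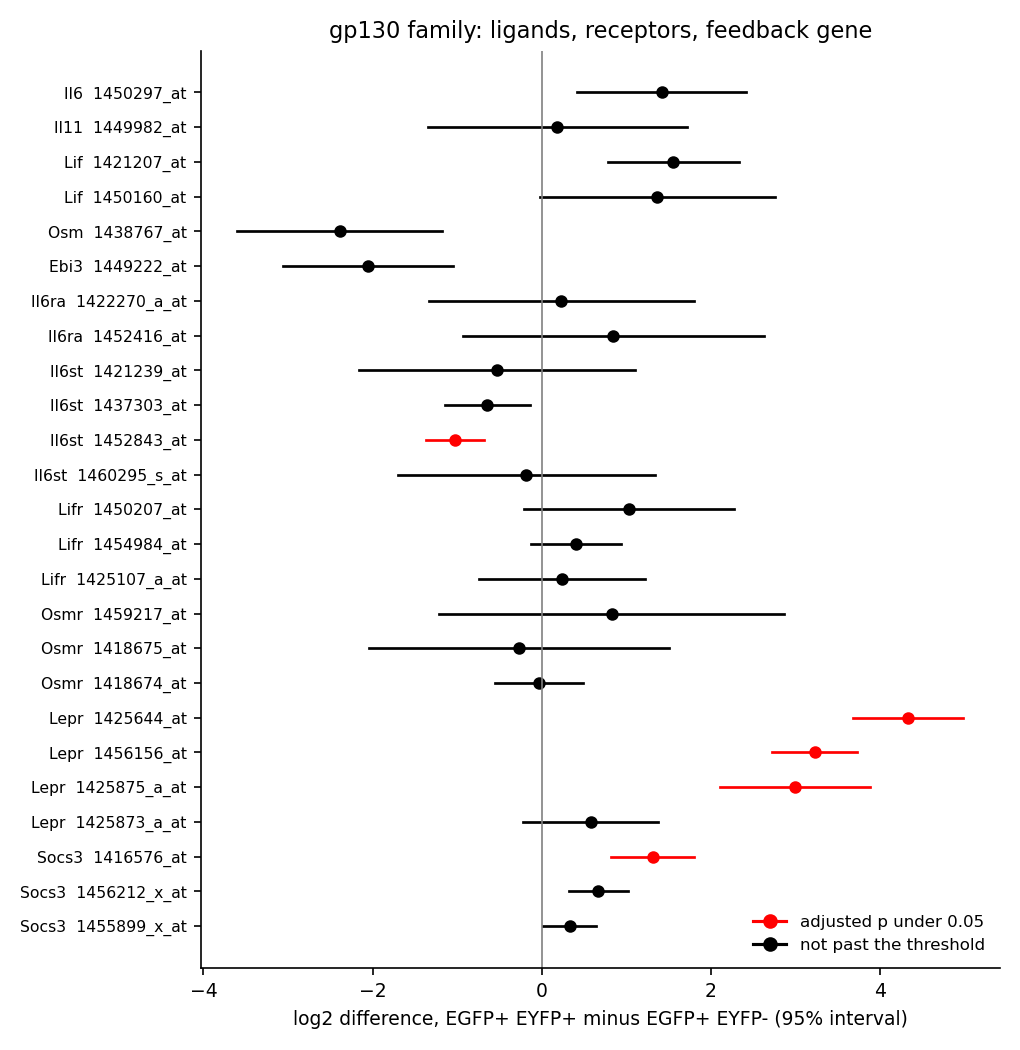
Log2 difference (double-positive minus single-positive) with 95% interval for each probe set of gp130 ligands (Il6, Il11, Lif, Osm), Ebi3, receptor chains (Il6ra, Il6st, Lifr, Osmr, Lepr) and the feedback gene Socs3, in red where the adjusted p was under 0.05. Il6st lies at -1.03 on its called probe set, Lepr between 3.00 and 4.34 on the 3 called ones and Socs3 at 1.31, while Il6 and Lif lie above 0 without passing here.

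No probe set of a receptor for interleukin 4 or interleukin 13 passed. Il4ra, the signalling chain for both cytokines, gave 859, 575 and 749 against 1533, 1744 and 1593, with every double-positive value above every single-positive one. Its log2 difference was 1.15 (SE 0.29, 95% interval 0.50 to 1.80, limma adjusted p = 0.117), and its adjusted p was 0.0545 to 0.441 over the alternatives. The other 2 Il4ra probe sets had 0.09 and 0.62. Il13ra2, the decoy chain, gave 430, 697 and 715 against 1071, 905 and 1414 (0.86, SE 0.34, limma adjusted p = 0.399). Il13ra1, which pairs with Il4ra, had 5 probe sets that disagreed, with log2 differences of 0.56, 0.07, 0.05, -0.49 and -0.57. The groups did not overlap on 3 of them, 1 higher and 2 lower. Il15ra, the private chain for interleukin 15, had 0.02 and 0.21 with overlapping groups. Il7r and Il21r, lymphocyte chains, had -0.57 (brighter of 2 probe sets) and -0.995 (limma adjusted p = 0.765 and 0.514) at signals of at most 146 and 190.

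Among interleukin 10 family receptors, Il10ra, the chain found on leukocytes, gave 248, 262 and 351 against 21.1, 113 and 17.4 (log2 difference -2.25, SE 0.57, limma adjusted p = 0.125). A second Il10ra probe set gave -1.91, also without overlap, and the third was dim throughout (0.06). Il10rb, the broadly expressed partner chain, had overlapping groups of 2248, 1354 and 3222 against 1709, 989 and 1484 (-0.65, 95% interval -1.49 to 0.19). Il20ra was 61.9, 43.2 and 24.4 against 81.3, 1271 and 84.7, without overlap, and double-positive array 2 stood far above the other 5 (log2 difference 1.90, SE 0.93, limma adjusted p = 0.530). Il22ra1, a chain for interleukin 22, and Il12rb1, one for interleukin 12, at 1.27 and 1.40 (limma adjusted p = 0.141 and 0.175), and Il22ra2, a secreted decoy at -1.10 (limma adjusted p = 0.148), did not overlap between groups. All signals of Il22ra1 and Il22ra2, and all of Il12rb1 but 1 double-positive array, were under the dim level, so these values rest on the offset.

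On its brightest probe set each interleukin 17 receptor but Il17rb was above the dim level on every array, and none passed. Il17rc, a partner chain of Il17ra, gave 629, 435 and 570 against 1452, 2263 and 779, without overlap (log2 difference 1.31, SE 0.42, limma adjusted p = 0.250). Il17rb, the chain for interleukin 25, gave 110, 178 and 85.3 against 682, 174 and 573, where double-positive array 2 lay within the single-positive range (1.60, SE 0.59, limma adjusted p = 0.342). Il17re, the chain for interleukin 17C, was lower on a probe set shared between transcripts, at 358, 436 and 639 against 151, 63.5 and 83.0 (-2.04, SE 0.48, limma adjusted p = 0.0970). On its 2 other probe sets the groups overlapped (-0.37 and 0.44). Il17ra, the common chain, had 0.11 (95% interval -0.61 to 0.83) on its brighter probe set, and Il17rd, a regulator of fibroblast growth factor signals, gave 7556, 6871 and 9668 against 4504, 3748 and 9947 (-0.52, SE 0.35).

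The interleukin 1 receptors did not pass either. Il1r1, the signalling receptor, was 3669, 5378 and 3228 against 7193, 3399 and 4525 on its brighter probe set, with overlap (log2 difference 0.26, 95% interval -0.46 to 0.99). The other Il1r1 probe set was dim on every array and lower without overlap (-0.28). Il1rap, the accessory chain, had 5 probe sets, from -1.10 to 0.68, with -0.45 on the brightest. Il1rl2, the receptor of interleukin 36, gave 2620, 2395 and 2357 against 1544, 1309 and 2192 on a shared probe set, without overlap (-0.57, SE 0.27, limma adjusted p = 0.506). The other Il1rl2 probe set had the opposite sign, with overlapping groups (0.62). Il1r2, a decoy, ranged from 10.9 to 257 in single-positive and from 12.2 to 181 in double-positive arrays, with array 1 lowest in each. Il18r1 stayed under the dim level on every array. The antagonist Il1rn had log2 differences of -0.63, 0.08 and 0.45 over 3 probe sets, and Il18bp, which binds interleukin 18, had 0.01 (95% interval -1.44 to 1.46).

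Downstream of the interleukin 1 and interleukin 17 receptors, none of 52 probe sets of signal transducers passed in limma. At an unadjusted p under 0.05, 2 were higher and 2 lower, where 4.57% of all probe sets were higher and 6.11% lower. Ikbkb, a kinase of the NF-kB pathway, had the smallest p on its brightest probe set (-0.67, SE 0.20, limma adjusted p = 0.217), while its others had both signs. Map3k7 had 1.23 on a probe set with a mean under the dim level, and 0.14 on its brightest. Ikbkg had -1.11 on 1 probe set and -0.37 on its brightest. Of 8 inflammasome probe sets none passed in limma, and 2 were higher at an unadjusted p under 0.05. These were of Gsdmd, the pore former, at 1.07 (limma adjusted p = 0.264) and Casp4, an inflammatory caspase, at 1.04 (limma adjusted p = 0.345), while Casp1, which cleaves interleukin 1 beta and interleukin 18, had -1.35 (limma adjusted p = 0.497).

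**Figure D5:**
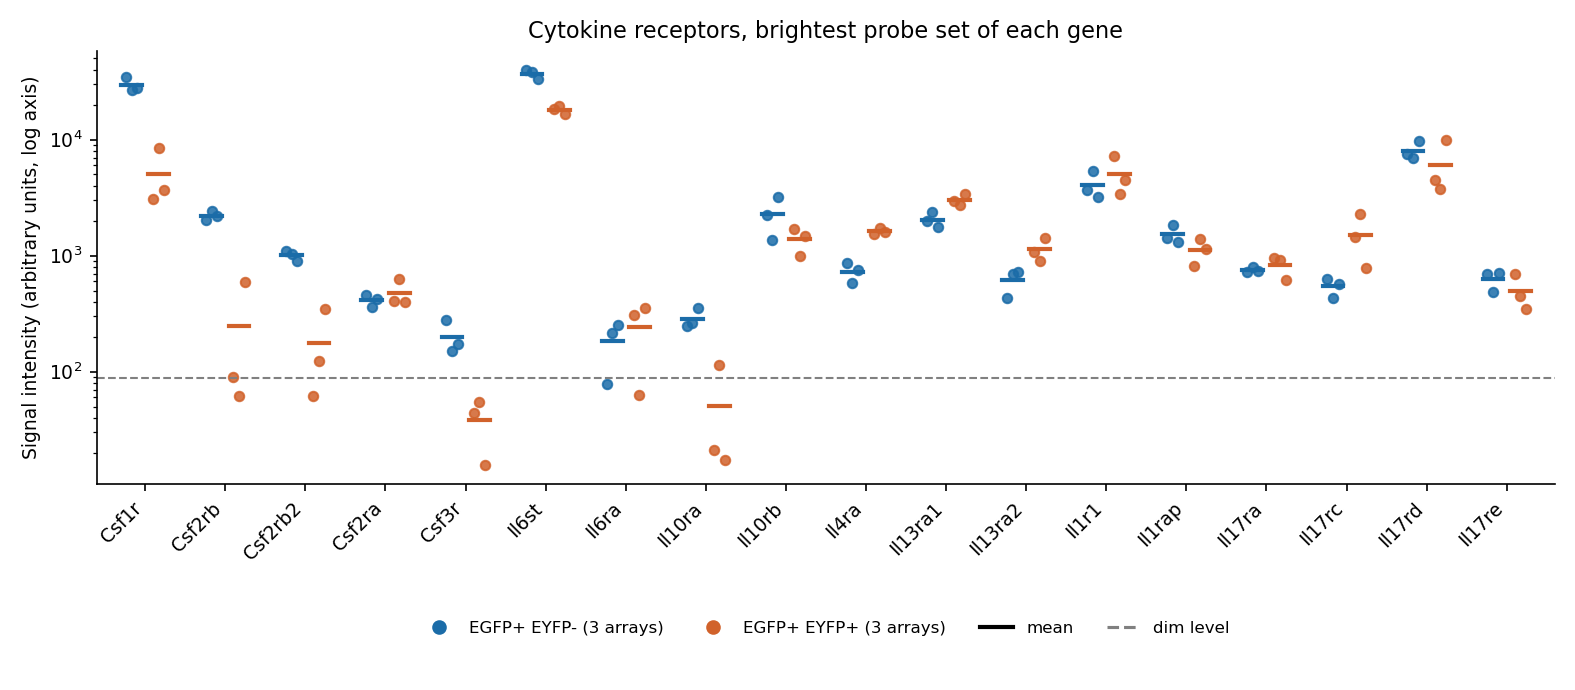
Signal intensity (arbitrary units, log axis) of 18 cytokine receptor chains on the brightest probe set of each gene in 3 single-positive (blue) and 3 double-positive (orange) arrays, with bars for the means and a dashed line for the dim level at 87.6. Csf1r, Csf2rb, Csf2rb2, Csf3r, Il6st and Il10ra are lower in every double-positive array, of which Csf1r, Csf2rb and Il6st passed, and Il4ra, Il13ra1, Il13ra2 and Il17rc are higher without passing.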

How the data were processed

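RNA of 6 sorted samples was amplified in 2 rounds and read on 1 array each. The authors deposited a linear signal intensity per probe set, made with GCOS per the submitters' processing notes. Which GCOS algorithm was used is not stated. With the top and bottom 2% of probe sets trimmed, each array averaged 1500.01, which shows prior scaling. Arrays were not rescaled (medians differed 1.36-fold). Of 45037 probe sets other than 64 controls, 34945 had 1 gene symbol, 932 several and 9160 none listed, and 4 with several symbols that include an interleukin or CSF gene were left out. All 81 member genes matched a RefSeq table (GRCm38.p6) and 0 symbols changed.

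The offset of 25.042 added before taking log2 was the 20th percentile of all values. All probe sets were fitted with limma 3.58.1 in R 4.3.3 (lmFit, and eBayes with trend = TRUE). Tests were two-sided, p-values were adjusted by Benjamini-Hochberg across the 45037, and the threshold was 0.05. No filter was used, so that every member was tested. The procedure was also run on simulated data with changes set only on probe sets above the dim level, so it does not cover dim members. The number of arrays limits the precision. Alternatives were quantile normalization, median centring, offsets of 1 and 100, a filter on dim probe sets, and the brightest probe set of each gene with that filter. Others were the mean per gene, no trend, array weights, a replicate block and leaving out each array.

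Genes named were those past the threshold, the 6 further ligand and receptor probe sets of smallest p, a set of well-known members, up to 3 genes per list and probe sets of 1 gene that differ in sign or call, and any others were chosen after their values were seen. Il11ra1, Il1rl1 and Il2rg are not analysed here. Members, lists and tests were chosen with earlier results of these data known. Deviations from the sort means had correlations of -0.065 to 0.092 between same-numbered arrays and -0.132 to 0.126 between the others. The replicate numbers were therefore not taken as pairs, although so few correlations cannot exclude pairing.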

Additional observations from a re-analysis of the deposited data

How the results depend on the processing

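Each setting below gives the number of interleukin and CSF probe sets called lower (4 as reported, 0 higher in every setting). It was 8 with the filter on dim probe sets, 2 with median centring, 2 without a variance trend, and 1 to 5 when 1 array was left out. Over all probe sets, 212 were higher and 481 lower as reported. Without a variance trend 122 were higher, and with 1 array left out 80 to 189 were higher and 153 to 482 lower. Leukocyte marker falls (22) numbered 12 to 19 with 1 array left out. For JAK-STAT brakes (1 higher, 1 lower), the higher count was 2 with array weights or the filter, 0 with the brightest probe set of each gene or no trend, and 0 to 1 with 1 array left out. The lower count was 2 with the brightest probe set, 0 with the mean over probe sets, median centring, no trend, offset 100 or quantile normalization, and 0 to 1 with 1 array left out. For gp130 partners (3 higher, 0 lower), the higher count was 1 with the mean over probe sets. The lower count was 2 with array weights, the brightest probe set, the filter or the mean, 1 without a trend, and 0 to 1 with 1 array left out. The causes were not tested, except that the filter on dim probe sets, the brightest probe set and the mean test fewer features.

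The replicate numbers were not taken to pair the arrays. With the replicate block 4 members were lower, 169 probe sets were higher and 386 lower. Of 919 values of 60 named probe sets under alternatives, 864 stayed on the same side of the threshold, 33 lost a call and 22 gained one. No called value changed sign, while 30 uncalled values did. Most of the 60 were not called as reported, so the 864 are largely values that stayed uncalled. They do not measure how stable the calls are. Csf2rb2 gained a call in 5 of 16 settings (adjusted p 0.013 to 0.222), Ebi3 in 5 (0.0121 to 0.253), Lif in 3 (0.0203 to 0.226), the third Csf1r probe set in 3 of 14 (0.03 to 0.234), Csf3r in 2 of 16 (0.0406 to 0.336), and Il10ra, Il17re, Ptpn6 and the second Csf2rb probe set in 1 each (Il10ra 0.0296 to 0.356). The calls of Il10ra and of the second Csf2rb probe set, and 1 of those of Csf3r, came in settings that leave out dim probe sets. Their double-positive means were under the dim level, so they passed that filter only through the single-positive arrays. With 3 arrays a group and many members near the dim level, a difference that did not pass is not shown to be absent.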

Other observations

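Some members varied more between arrays of 1 sort than between the sorts. Il20rb gave 47.8, 214 and 262 in the single-positive arrays and 20.1, 320 and 183 in the double-positive arrays, with array 1 lowest in each. Il1rapl1 was 488 in single-positive array 1 against 52.3 and 37.7 in the other single-positive arrays, and 276 in double-positive array 2 against 80.2 and 39.3. On a second Il17rd probe set double-positive array 1 stood at 1506, against 255 and 433 in the other double-positive arrays and 383 to 496 in the single-positive arrays. Il23a reached 269 in single-positive array 3, against 16.9 to 109 in the other 5 arrays.

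Among 31 member genes with more than 1 probe set, 16 had probe sets with differences of both signs, and 3 had a probe set that passed. Those of both signs that are not described above, none called, are Il12b (0.34 and -0.72), Il18rap (-0.54 and 0.03), Il1rapl2 (0.32, 1.20 and -0.12), Il21 (-0.33 and 0.03), Il2ra (-0.23 and 0.37), Il2rb (0.19 and -0.28) and Il31ra (-0.02 and 0.36).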
